A study of Mus musculus with 5 samples.

Results

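The edge of the heart section was compared with its interior in the 2 sham-operated hearts of a Visium study of the neonatal mouse heart. Visium captures polyadenylated RNA on a slide with a regular grid of barcoded spots, and each spot samples a patch of tissue that may contain several cells or a fragment of a cell. A spot was called edge when 1 to 5 of the 6 adjacent grid positions held another tissue spot, and interior when all 6 did, so that expression played no part in the choice. Spots had to carry at least 1000 unique molecular identifiers (UMIs), and 1 spot of the day 3 section did not. The sham sections then held 208 edge and 1295 interior spots, of 1504 spots in these sections and 3364 in the series. The day 3 section had 86 edge and 457 interior spots, and the day 7 section had 122 and 838. Of the edge spots, 23 at day 3 and 34 at day 7 missed only 1 neighbor.

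All mice were wild-type C57BL/6 and were operated on postnatal day 1. Sham surgery left the coronary artery open, whereas myocardial infarction (MI) followed from ligation of its left anterior descending branch. The sham hearts were sectioned across 3 or 7 days after surgery, at the level that lay 200 µm below the suture in MI hearts, with 1 section per day. The 3 MI sections (1 at day 3 and 2 at day 7) served only as a comparison. Day and animal therefore cannot be told apart between the sham sections, and neither sham section has a replicate of its own day.

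A transverse section of the ventricles is layered. Its rim holds the epicardium, a mesothelial sheet over connective tissue with coronary vessels and lymphatics, then compact muscle. Toward the cavities lie trabecular muscle, the fibers of the conduction system and the endocardium. Natriuretic peptide genes and conduction genes are known marks of the inner layers, and mesothelial genes of the outer surface. Because a spot averages its cells, fewer cells of a type and less RNA per cell cannot be told apart in any value given here.

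Depth hardly differed between the classes. The median was 21428 UMIs per edge spot and 20806 per interior spot at day 3, and 22098 and 23019 at day 7. Both classes carried cardiac muscle RNA throughout: Myl2, the ventricular myosin light chain, stood at 14113 CPM (values scaled to a common total per spot, from raw UMI counts at day 3 and corrected counts at day 7) at the edge and 15016 in the interior at day 3, and at 13486 and 13117 at day 7. Of the marker lists for neighboring tissue, no T cell and thymus gene passed the filter on low values, and the members present in both tables lay between 0.205 and 0.729 CPM. Of the 7 adipose and 5 lung genes, 1 each had values in both sham sections. Both passed the filter and neither was called (Lpl, -0.14, and Ager, 0.33, on the log2 scale). The other adipose and lung genes could not be examined. The sections shared 339 spot barcodes, which name positions on a slide and not cells. Hemoglobin and mitochondrial transcripts, described below, took larger shares at the edge in both sections. The 10 most abundant genes took 23.2% of the edge and 16.8% of the interior at day 3, and 19.9% and 17.6% at day 7. Ribosomal protein transcripts made up 7.70% of the edge and 8.03% of the interior at day 3, and 6.92% and 7.13% at day 7.

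**Figure D1:**
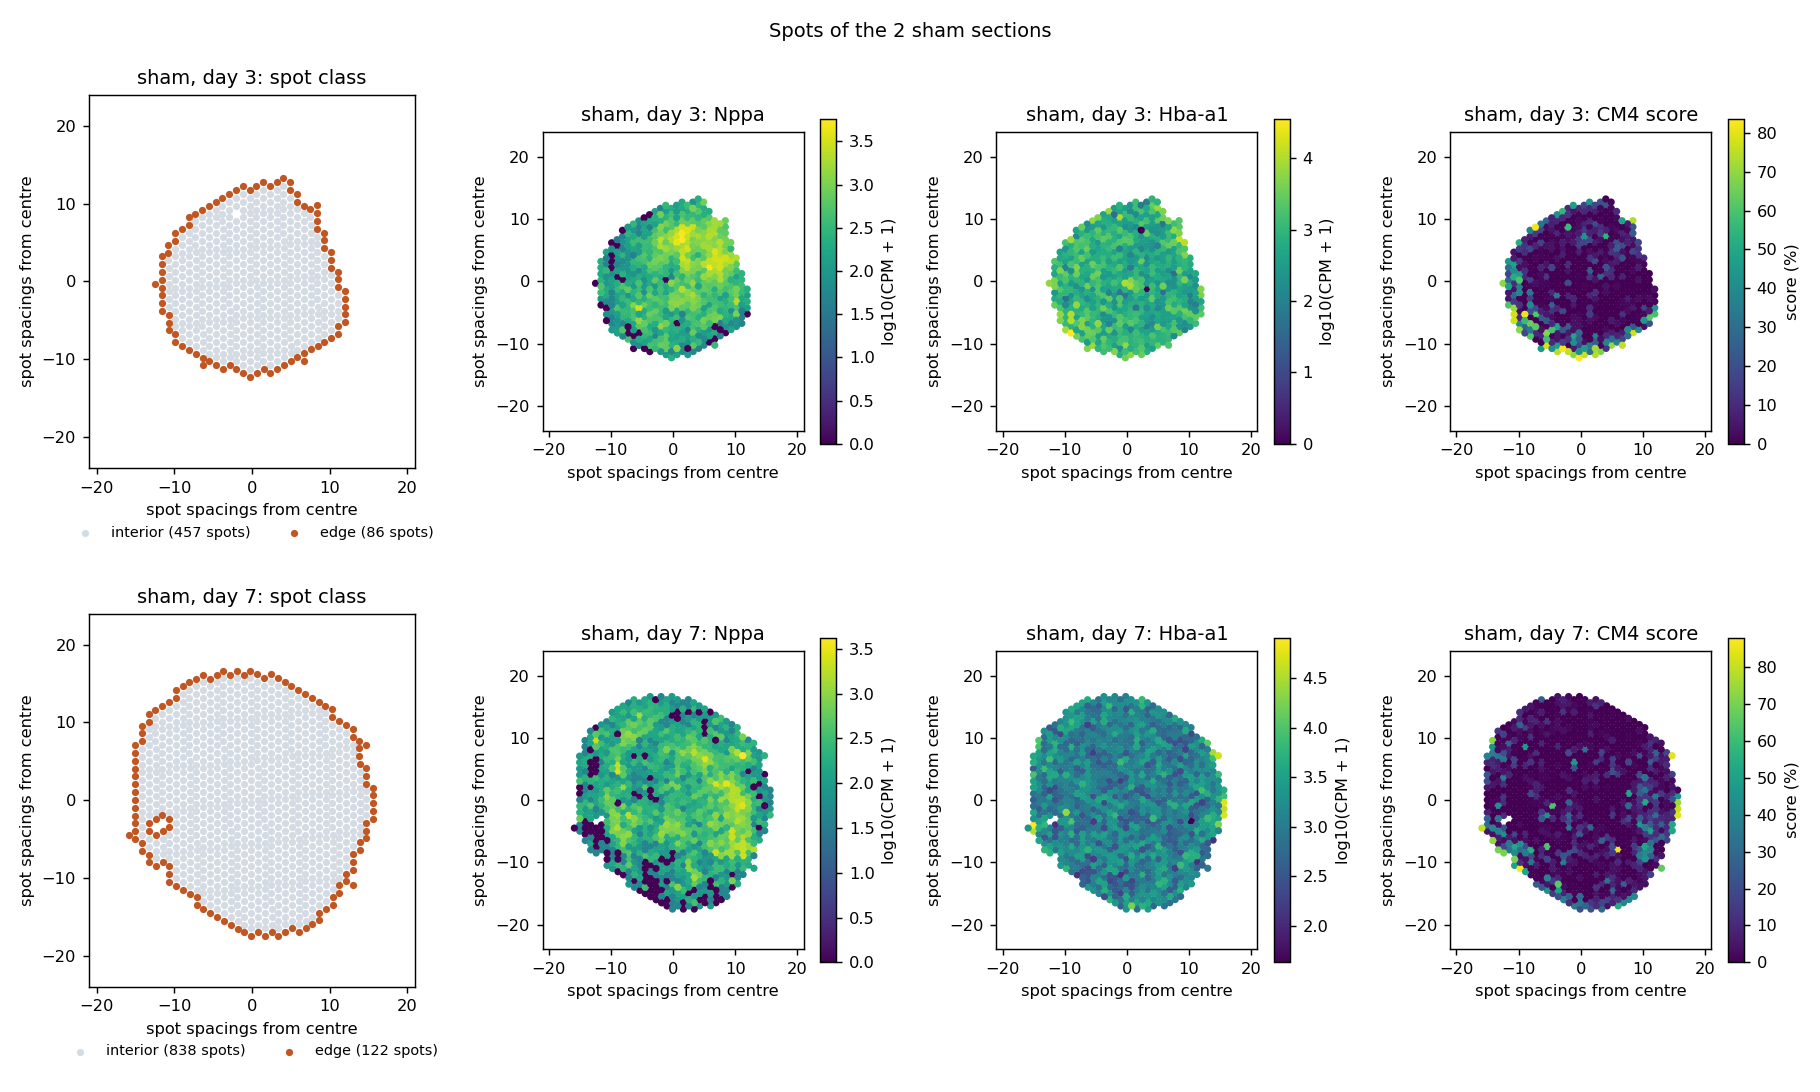
Spots of the sham day 3 section (upper row) and the sham day 7 section (lower row), placed by image position in spot spacings from the center of the section. The panels show the spot class, the levels of Nppa and Hba-a1 as log10(CPM + 1), and the CM4 label transfer score in percent. Nppa is lower in most of the rim than in the interior, with a stretch of the day 3 rim (1 sector, mean 898 CPM) above the mean of that section's interior, while Hba-a1 and CM4 average higher in edge than in interior spots, with high values in some interior spots too.

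The question was which genes differ between rim and interior of an uninjured neonatal heart. Spot values were scaled to CPM, averaged per class and section, and compared as log2(mean CPM + 1) with the section as a block. Of 12815 genes tested, 1694 (13.2%) were higher at the edge in both sections and 5890 (46.0%) were lower in both, so 59.2% had the same direction. Limma with Benjamini-Hochberg adjustment called 51 genes higher (0.398%) and 187 lower (1.46%) at an adjusted p under 0.05, 238 in all (1.86%), and all 238 had the same direction in both sections. At an unadjusted p under 0.05, 193 genes were higher and 1503 lower.

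These calls lean on the spread shared by all genes. With 1 residual degree of freedom, limma set the prior degrees of freedom to infinity and replaced the spread of a gene between the sections by the trend over all genes, which makes the adjusted p-values of abundant genes very small. A fit over all 5 sections, with a prior of 16.4 degrees of freedom, called 22 genes higher (0.165%) and 39 lower (0.293%) in sham, all of them among the calls above (its adjusted p is given below where it ended a call). An exact permutation test over 2 paired sections cannot go below 0.5.

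The split into higher and lower genes depended on the scaling. The median gene was lower at the edge by -0.11 (log2) under CPM, by -0.14 at day 3 and -0.08 at day 7. Median-of-ratios scaling, which sets the typical gene near 0 (median -0.01), called 79 genes higher (0.618%) and 73 lower (0.571%). Higher genes were thus 21.4% of the calls under CPM and 52.0% under median-of-ratios. All 51 higher genes and 73 of the 187 lower genes were called under both. Differences below are on the CPM scale unless they are said to be relative to the median gene.

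Blood genes rose at the edge, with 1 exception. Of the 6 genes of the blood list, 5 rose, none fell, and the median difference was 1.10 (log2), or 1.21 relative to the median gene. Hemoglobin transcripts made up 0.801% of edge and 0.371% of interior transcripts at day 3, and 1.61% and 0.553% at day 7. Hba-a1, an adult alpha-globin gene (GRCm38 chromosome 11, 32283511 to 32284465), had 2927 CPM at the edge and 1120 in the interior at day 3, and 5324 and 1616 at day 7. The edge was above the interior in both sections, by 1.55 ± 0.07 (log2, limma SE, n = 2 sections). It was also above in all 12 of the 60-degree sectors into which the sections were cut. This SE and those of the sham fit that follow come from the trend over all genes. They do not measure the spread of a gene between the sections.

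The beta-globin genes went the same way. Hbb-bs had 4273 and 2229 CPM at day 3 and 9235 and 3387 at day 7, a rise of 1.19 ± 0.07. Hbb-bt rose by 1.45 ± 0.07. Hba-a2 rose by 0.97 ± 0.09, from 84.4 to 147 CPM at day 3 and from 118 to 263 at day 7. Within the alpha and within the beta pair, the genes are near copies, so the division of reads between the members of a pair is uncertain. Alas2, the erythroid enzyme of heme synthesis, rose by 1.01 ± 0.20, from 8.92 to 17.4 CPM at day 3 and from 14.3 to 32.4 at day 7, but was not called when edge and interior spots were matched on UMI total (0.52, limma adjusted p = 0.375). Slc4a1, the anion exchanger of red cells, was at 0.992 and 1.59 CPM at day 3 and at 3.21 and 1.35 at day 7, and did not pass.

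The globin excess was uneven along the rim and lay mostly in the outermost ring of spots. The 5 highest edge spots held 30.9% of the Hba-a1 edge level at day 3 and 42.4% at day 7. Without them the edge mean was 2147 CPM at day 3 and 3198 at day 7, which still exceeded the interior means. The median edge spot had 1445 CPM against 671 in the median interior spot at day 3, and 1873 against 1096 at day 7. In the ring of spots just inside the edge the mean was 1210 CPM at day 3 and 2055 at day 7, and from the fifth ring inward it was 967 and 1452.

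Ccl21a, a chemokine of lymphatic endothelium that attracts lymphocytes and dendritic cells, rose most of all genes with at least 20 CPM. Its mean was 52.2 CPM at the edge and 1.94 in the interior at day 3, and 28.5 and 1.91 at day 7 (3.76 ± 0.25, chromosome 4, 42772860 to 42773993). Edge spots with any Ccl21a made up 19.8% at day 3 and 20.5% at day 7, against 3.5% and 3.3% of interior spots. The gene was therefore not detected in most edge spots and strong in a few. The 5 highest held 73.1% and 59.8% of the edge level. Without them the edge mean was 14.9 CPM at day 3 and 11.9 at day 7. In raw counts of the day 3 section Ccl21a had 63 UMIs at the edge and 19 in the interior. Other copies of the gene are nearly identical, so its reads cannot be assigned to it with certainty.

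Of the 6 lymphatic genes tested, 2 rose and none fell. Mmrn1, multimerin 1, had 6.38 and 0.859 CPM at day 3 and 5.04 and 0.665 at day 7, and rose by 1.92 ± 0.39. Prox1, the transcription factor that specifies lymphatic endothelium and is also made by cardiac muscle, was at 46.2 and 46.6 CPM at day 3 and 25.2 and 31.4 at day 7 and was not called. Flt4, Pdpn and Reln were not called either, and the list's median was 0.41.

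Mesothelial genes were found in few spots. Msln, mesothelin of the serosal surface, was at 22.7 CPM at the edge and 0.122 in the interior at day 3, and at 2.18 and 0.103 at day 7, from 5 edge spots in each section. Msln rose by 2.96 ± 0.40, on 14 UMIs at the edge and 1 in the interior at day 3. Most of its day 3 edge level came from 1 shallow spot, described below with C3. Rspo1, a secreted enhancer of Wnt signaling, had 11.7 and 0.605 CPM at day 3 and 1.06 and 0.358 at day 7 (1.80 ± 0.41), and was not called with all 5 sections (limma adjusted p = 0.0738). The epicardial list had 2 of 11 genes higher and none lower, and 7 of its 18 genes were not used here. Its median difference was 0.92 at day 3 and -0.25 at day 7. Wt1, Tbx18, Tcf21 and Aldh1a2, genes of epicardium and its derivatives, were not called; Tbx18 was lower in both sections, 11.9 and 18.5 CPM at day 3 and 5.07 and 8.25 at day 7.

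C3, the central complement component, rose on the RNA of few spots. It had 96.1 CPM at the edge and 1.96 in the interior at day 3, and 3.23 and 0.466 at day 7 (3.28 ± 0.31). A single spot of the day 3 section with 4626 UMIs held 6742 CPM of C3, and the same spot held 1305 CPM of Msln and 870 CPM of Ccl21a. At day 3 the 5 highest edge spots held 94.2% of the edge level, and without them the edge mean was 5.87 CPM. These 2 values do not cover day 7. With a minimum of 5000 UMIs per spot the difference was 1.34, and without the day 3 section it was 1.53 and was not called. Of 6 genes tested in the complement list, 1 rose (C3) and 1 fell, and the median was 0.12; under median-of-ratios scaling 2 rose and 1 fell.

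Lrtm1, a gene for a leucine-rich repeat membrane protein, fell off gradually from the rim. Its edge and interior means were 22.4 and 6.19 CPM at day 3 and 95.3 and 40.6 at day 7, a rise of 1.45 ± 0.16 that was present in all 12 sectors. From the edge inward it went through 22.4, 14.7, 9.8, 5.3 and 2.8 CPM in rings 1 to 5 at day 3. At day 7 the values were 95.3, 97.5, 73.4, 52.1 and 19.7 CPM. The level thus reached several rings deep, unlike Ccl21a, which fell from 52.2 to 5.5 CPM between rings 1 and 2 at day 3 and from 28.5 to 8.0 at day 7.

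Dlk1, an imprinted membrane protein related to Notch ligands, had 74.8 and 40.9 CPM at day 3 and 21.2 and 8.85 at day 7 (1.01 ± 0.16). C1qtnf9, a secreted protein with a C1q domain, had 26.2 and 11.8 CPM at day 3 and 29.5 and 23.6 at day 7. Its rise of 0.70 ± 0.17 was not called with all 5 sections (limma adjusted p = 0.117) or with spots matched on UMI total (0.112).

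Elastic fiber genes did not move together. Eln, which encodes elastin, had 240 and 161 CPM at day 3 and 477 and 281 at day 7, a rise of 0.67 ± 0.08 (chromosome 5, 134702593 to 134747323). The 5 highest edge spots held 50.2% and 36.8% of the edge level, and ring 2 was higher still, at 286 CPM at day 3 and 654 at day 7. Without those 5 spots the day 3 edge mean was 127 CPM, below the full interior mean, and the day 7 mean was 314. No interior spots were set aside, so the 2 means are not trimmed alike. Lox, an enzyme that cross-links elastin and collagen, rose by 0.60 ± 0.18 (26.4 and 14.9 CPM at day 3, 26.3 and 19.5 at day 7). Neither was called with all 5 sections (limma adjusted p = 0.116 and 0.206), nor Lox with matched spots (0.0582). Mfap5, a microfibril protein, fell by 0.74 ± 0.09, and Fbn1, fibrillin 1, fell by 0.31 ± 0.08, though Fbn1 lost its call once scaled by median-of-ratios (limma adjusted p = 0.220). Of 14 genes tested 2 rose and 2 fell, and the median was -0.02.

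**Figure D2:**
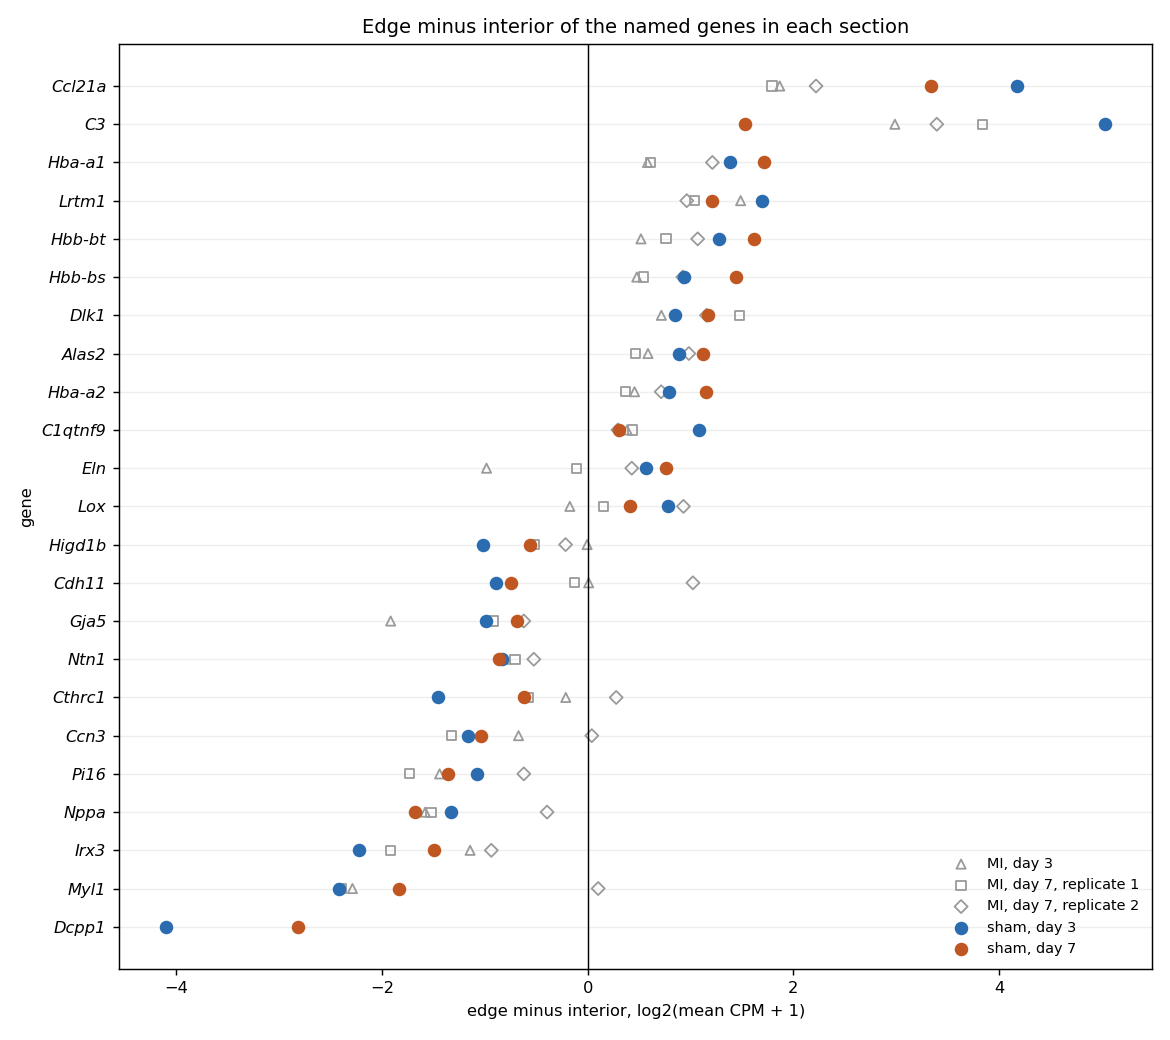
Edge minus interior of log2(mean CPM + 1) for the 12 largest rises and the largest falls of genes whose higher class reached 20 CPM, 1 point per section: filled blue for sham day 3, filled orange for sham day 7 and open gray for the MI sections. The sham points of a gene lie on the same side of 0 throughout, as the choice of genes requires, and Dcpp1 is in no MI point because it is not in all 5 tables.

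The clearest group among the falls was that of trabecular and conduction genes. Of 7 tested, 5 fell, none rose, and the median was -0.98 (log2), or -0.87 relative to the median gene. Nppa, which encodes atrial natriuretic peptide (chromosome 4, 148000722 to 148002079), had 267 CPM at the edge and 674 in the interior at day 3, and 106 and 341 at day 7. It fell by 1.50 ± 0.08 and was lower at the edge than in the interior of the same sector in all 12 sectors, although the edge means of the sectors ran from 102 to 898 CPM at day 3. Its level climbed inward without a break: 267, 427, 476, 722 and 793 CPM in rings 1 to 5 at day 3, and 106, 194, 295, 319 and 387 at day 7.

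Irx3, a transcription factor of the ventricular conduction system, had 6.97 and 36.3 CPM at day 3 and 7.05 and 21.7 at day 7 (-1.86 ± 0.21). Edge spots with any Irx3 made up 14.0% and 13.9%, against 42.9% and 36.0% of interior spots. Its day 3 level was 7.0, 7.2, 22.3, 34.3 and 49.5 CPM in rings 1 to 5, so the low zone was 2 spots wide there. Etv1, a transcription factor of fast-conducting muscle, fell by 0.98 ± 0.23 (9.73 and 18.2 CPM at day 3, 6.71 and 15.7 at day 7). Nppb, which encodes brain natriuretic peptide, fell by 0.46 ± 0.09 (94.5 and 124 CPM at day 3, 159 and 231 at day 7).

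Gja5, which encodes connexin 40 of conduction fibers and arterial endothelium, fell by 0.84 ± 0.20 (13.9 and 28.5 CPM at day 3, 9.61 and 16.1 at day 7). It was lower in 10 of 12 sectors, and was not called with all 5 sections (limma adjusted p = 0.162). The pacemaker channel gene Hcn4 and the conduction marker Cntn2 were below 3 CPM in each profile and were not called.

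Myl1, a myosin light chain of skeletal and immature cardiac muscle that was in none of the lists, had 3.66 and 23.9 CPM at day 3 and 6.74 and 26.7 at day 7 (-2.13 ± 0.23). Ntn1, the guidance cue netrin 1, had 68.4 and 122 CPM at day 3 and 42.6 and 78.3 at day 7 (-0.85 ± 0.11). Both genes were lower at the edge in all 12 sectors. Dcpp1, known as a salivary gland protein, had the largest fall (-3.46 ± 0.32), from 34.6 to 1.08 CPM at day 3 and from 10.9 to 0.688 at day 7, with 300 interior and 2 edge UMIs at day 3. It has close paralogs, so its reads are uncertain.

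**Figure D3:**
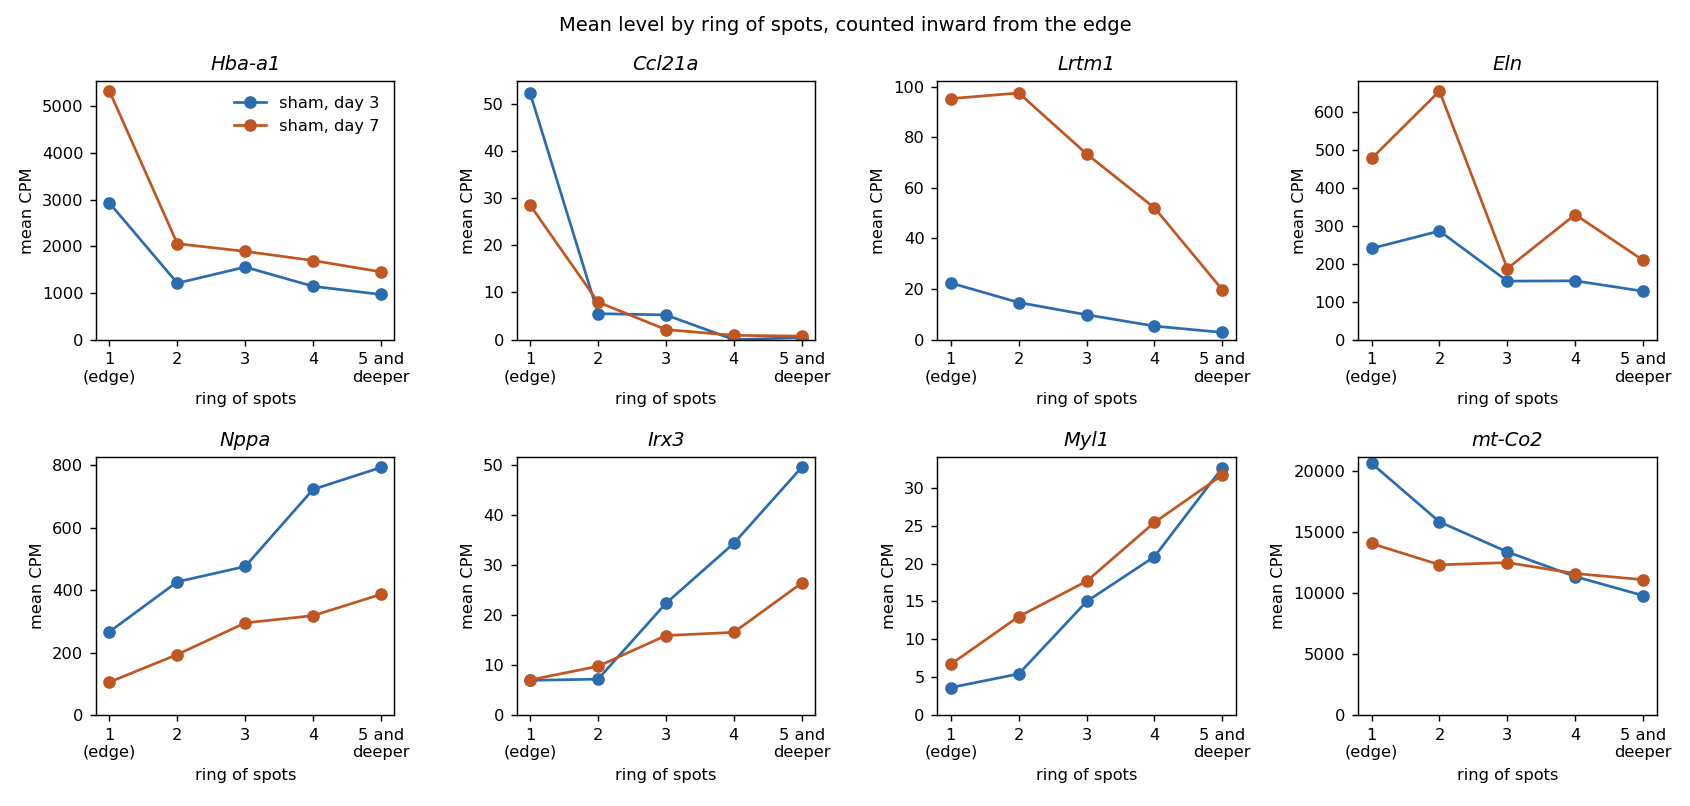
Mean CPM by ring of spots, counted inward from the edge (ring 1), in the sham day 3 section (blue) and the sham day 7 section (orange); ring 5 pools all deeper spots. Hba-a1 and Ccl21a drop between rings 1 and 2, Lrtm1 and mt-Co2 decline over several rings, Eln peaks in ring 2, and Nppa rises inward from ring to ring in both sections, while Irx3 and Myl1 are low at the edge.

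Endocardial and valve genes were lower as well, with 3 of 8 tested fallen, none risen and a median of -0.57. Cytl1, a secreted protein of valve and endocardium, fell by 2.10 ± 0.37, from 8.96 to 0.618 CPM at day 3 and from 6.18 to 1.41 at day 7. Plvap, which builds the diaphragms of endothelial pores, fell by 1.28 ± 0.25, and Emcn, the sialomucin endomucin, by 0.46 ± 0.13. Plvap and Emcn were not called with all 5 sections (limma adjusted p = 0.0633 and 0.0910), nor Emcn under median-of-ratios scaling (0.204). Npr3, a natriuretic peptide receptor of endocardium, was lower in both sections, 12.2 and 15.2 CPM at day 3 and 1.45 and 5.72 at day 7, but did not pass. Among 12 coronary and capillary endothelial genes only Aqp1, a water channel, rose (0.49 ± 0.10, limma adjusted p = 0.0619 with all 5 sections, list median 0.03), and under median-of-ratios scaling 3 rose.

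Dbh, the noradrenaline-making enzyme of sympathetic nerves, fell by 1.34 ± 0.25 (4.85 and 15.5 CPM at day 3, 7.77 and 18.8 at day 7) and was lower in all 12 sectors. It was the only called gene of 3 tested in the nerve list, whose median was -0.25. In the atrial list Nppa alone was called of 5 genes (median -0.35). In the skeletal muscle list of 6, Casq1, a calsequestrin, fell by 0.69 ± 0.10 and Acta1, skeletal actin, rose by 0.38 ± 0.09 (median -0.23). Acta1 was higher at the edge in 7 of 12 sectors and was not called with all 5 sections (limma adjusted p = 0.131).

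Genes of the connective tissue matrix moved in both directions. The fibrillar collagen genes Col1a1 (0.43 ± 0.07), Col1a2 (0.34 ± 0.07) and Col3a1 (0.23 ± 0.07) rose, Col1a1 from 647 to 897 CPM at day 3 and from 613 to 802 at day 7. Dcn, the proteoglycan decorin, fell by 0.41 ± 0.07, and Postn, periostin, by 0.47 ± 0.07, from 807 to 554 CPM at day 3 and from 660 to 503 at day 7. Lum, Gsn and Fstl1 were the other fibroblast genes that fell, so that 3 of 12 rose and 5 fell (median -0.19). Under median-of-ratios scaling 3 rose and 3 fell, Lum and Fstl1 no longer. With all 5 sections none of these 8 fibroblast genes was called (limma adjusted p from 0.0599 to 0.381).

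Of 15 proteoglycan and matricellular genes, 1 rose and 6 fell (median -0.31), and 5 fell under median-of-ratios scaling, without Lum. Ccn3, a matricellular growth regulator, fell most of them at 36.2 and 82.2 CPM at day 3 and 37.5 and 78.1 at day 7 (-1.10 ± 0.12, lower in all 12 sectors). Aspn, asporin, fell by 0.60 ± 0.10, Vcan, versican, by 0.69 ± 0.13, and Prelp by 0.64 ± 0.15, of which Vcan and Prelp were not called with all 5 sections (limma adjusted p = 0.0976 and 0.149). The gene that rose was Fmod, fibromodulin, on 5 edge UMIs at day 3. Outside the lists, Pi16 (-1.22 ± 0.22), Cthrc1 (-1.04 ± 0.22) and the mesenchymal cadherin Cdh11 (-0.82 ± 0.20) fell, as did Higd1b, a marker of pericytes (-0.79 ± 0.20). Cdh11 and Higd1b were not called with all 5 sections (limma adjusted p = 0.0951 and 0.0626), nor Higd1b under median-of-ratios scaling (0.0540) or Pi16 and Cdh11 with matched spots (0.0674 and 0.219).

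The imprinted growth genes Igf2 and H19, which lie side by side on chromosome 7, both fell. Igf2, a fetal growth factor, had 404 and 575 CPM at day 3 and 174 and 235 at day 7 (-0.47 ± 0.08). H19, a non-coding RNA, had 343 and 658 CPM at day 3 and 170 and 248 at day 7 (-0.74 ± 0.08). Both were lower in all 12 sectors. Igfbp3 and Igfbp5, which bind insulin-like growth factors, fell by 0.77 ± 0.20 and 0.67 ± 0.10 and were not called with all 5 sections (limma adjusted p = 0.222 and 0.0738). With Dlk1, 1 of the 15 genes of this list rose and 4 fell (median -0.12). Under median-of-ratios scaling 2 rose (Dlk1 and Igfbp7) and 3 fell, without Igfbp3.

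Mitochondrially encoded transcripts were higher at the edge, whereas nuclear genes of the same complexes were not. All 13 were higher in both sections and 12 rose, with mt-Nd6 (0.67 ± 0.21, limma adjusted p = 0.0714) as the exception; under median-of-ratios scaling all 13 rose. Their share, over all transcripts, was 21.6% of edge and 14.6% of interior transcripts at day 3, and 17.9% and 15.4% at day 7. The median difference was 0.62 at day 3 and 0.22 at day 7. The most marked of the 12 was mt-Co2, a subunit of cytochrome oxidase, with 20624 and 11554 CPM at day 3 and 14062 and 11497 at day 7 (0.56 ± 0.07, higher in all 12 sectors). It declined from 20624 to 9801 CPM over rings 1 to 5 at day 3, and from 14062 to 11101 at day 7, where ring 3 stood above ring 2. With all 5 sections 4 of the 12 were called (mt-Nd1, mt-Nd2, mt-Nd5 and mt-Co2), and the limma adjusted p of the other 8 ran from 0.0569 to 0.209.

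All 24 nuclear oxidative phosphorylation genes were lower at the edge in both sections, with a median of -0.11, which is -0.00 relative to the median gene. Only Cox5a was called (-0.24 ± 0.07), and none under median-of-ratios scaling. A high mitochondrial share is also a common sign of RNA quality in a tissue, and its part in these results was not tested. When the mitochondrially encoded and hemoglobin genes were left out before scaling, 56 genes were higher and 78 lower.

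**Figure D4:**
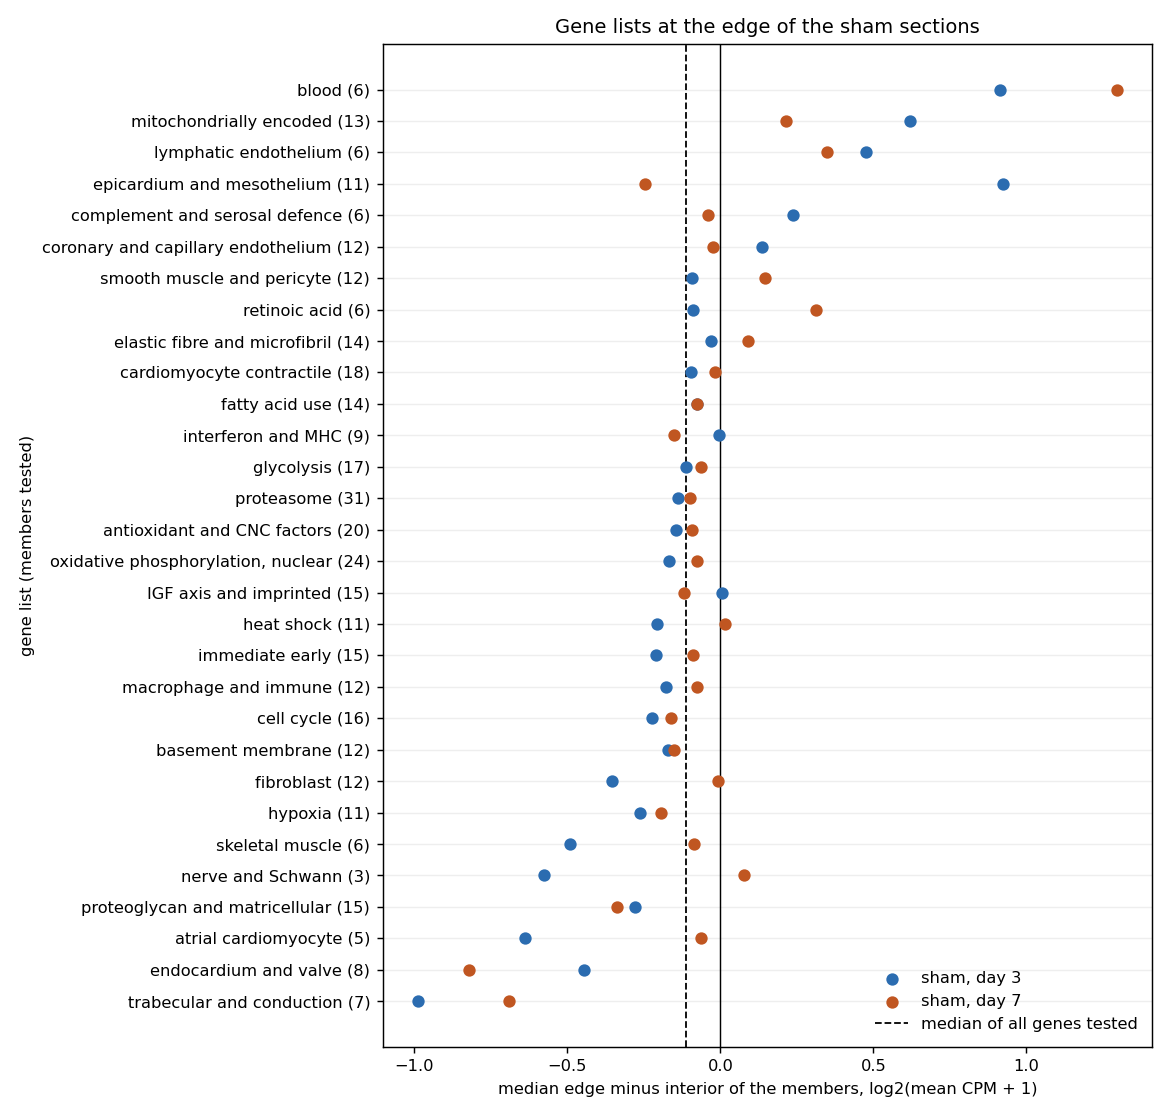
Median edge-minus-interior difference of log2(mean CPM + 1) for each gene list with at least 3 members tested, in the sham day 3 section (blue) and the sham day 7 section (orange), with the number of members tested in parentheses; the dashed line is the median of all genes (-0.11). Blood, mitochondrially encoded and lymphatic lists lie above that line in both sections, trabecular and endocardial lists lie below it, and most metabolic lists lie close to it.

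The contractile genes of cardiac muscle did not differ detectably. Limma called none of 18 (3 lower and none higher at an unadjusted p under 0.05), the median was -0.05 (0.06 relative to the median gene), and the list ran from -0.17 for Casq2 to 0.03 for Ttn. Of 12 macrophage and immune genes none was called, nor any at an unadjusted p under 0.05 (limma, median -0.17); Lyz2, the most abundant, was at 32.0 and 42.9 CPM at day 3 and 48.1 and 50.5 at day 7. Among 12 smooth muscle and pericyte genes only Tagln, transgelin, rose (0.46 ± 0.12, median 0.01). It was higher at the edge in 6 of 12 sectors and was not called with matched spots (0.16, limma adjusted p = 0.768) or with all 5 sections (0.267).

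Nfe2l1, the gene of the transcription factor Nrf1 that the study is about, was at 77.8 and 103 CPM at day 3 and at 85.5 and 103 at day 7. Edge spots were lower in both sections and in all 12 sectors, and the fall of 0.33 ± 0.10 was just past the threshold (limma adjusted p = 0.0489). It was -0.22 relative to the median gene and was not called under median-of-ratios scaling (0.387) or with all 5 sections (0.130). Of the 20 antioxidant and CNC factor genes it was the only one called (median -0.11). Nfe2l2 (Nrf2) had 48.2 and 51.1 CPM at day 3 and 51.1 and 48.0 at day 7. Among 31 proteasome genes, which Nrf1 is known to control, Psmd8 alone fell (-0.30 ± 0.09) and the median was -0.11.

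Other lists had few calls, and those were lost under median-of-ratios scaling. Hspa5, a chaperone of the endoplasmic reticulum, was the 1 of 11 heat shock genes that fell (-0.30 ± 0.08, list median -0.12), and Pfkm the 1 of 17 glycolytic genes (-0.26 ± 0.08, median -0.11). Mki67 (-0.44 ± 0.12) and Cdk1 (-0.38 ± 0.11) were the 2 of 16 cell cycle genes that fell (median -0.18). No gene was called among 14 of fatty acid use (median -0.08), 12 of the basement membrane (-0.19), 11 of hypoxia (-0.21), 15 immediate early (-0.13), 9 of interferon and MHC (-0.08) and 6 of retinoic acid (-0.01). At an unadjusted p under 0.05, limma had 3 of the fatty acid genes, 7 of the basement membrane genes, 7 of the hypoxia genes and 1 of the immediate early genes lower and none higher. It had 2 of the retinoic acid genes higher, and 1 interferon and MHC gene in each direction. Of the calls that median-of-ratios scaling ended, Fbn1, Cox5a, Psmd8, Hspa5, Pfkm, Mki67 and Cdk1 were not made with all 5 sections either (limma adjusted p from 0.132 to 0.231). All 11 hypoxia genes and 10 of the 12 basement membrane genes were lower in both sections, against 46.0% of all genes. So were all 24 nuclear oxidative phosphorylation genes and 22 of 31 proteasome genes, whose medians lay at the median gene. None of these 4 lists had a gene higher in both. Relative to the median gene, the hypoxia and basement membrane medians were only -0.10 and -0.08.

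The deposited label transfer scores, which estimate the make-up of each spot from a single-nucleus reference and derive from the same expression values, gave the sham rim a higher share of a cardiomyocyte state. CM4, a state that the study follows in the injured neonatal heart, averaged 33.1% of the score in edge spots and 7.49% in interior spots at day 3, and 19.4% and 5.92% at day 7. CM4 was the highest score in 32 of 86 edge spots at day 3 (37.2%, exact Clopper-Pearson 95% interval 27.0 to 48.3) and in 24 of 457 interior spots (5.25%, 3.39 to 7.71). At day 7 it was highest in 25 of 122 edge spots (20.5%, 13.7 to 28.8) and in 33 of 838 interior spots (3.94%, 2.73 to 5.49). These intervals cover counting error only, and neighboring spots are not independent.

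The fibroblast score was lower at the edge by 10.4 percentage points at day 3 and 3.08 at day 7, and the endocardial score by 7.18 and 3.93. With spots matched on UMI total the fibroblast difference was -8.50 points at day 3 and 0.010 at day 7. At day 7 it was -5.81 with the outer edge only and -7.29 with edge spots of 1 to 4 neighbors. The epicardial score reached 2.14% at the edge against 0.21% in the interior at day 3, and 0.14% against 0.00% at day 7. CM1, another cardiomyocyte score, differed by -0.77 points at day 3 and 2.55 at day 7. The score differences were not tested.

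**Figure D5:**
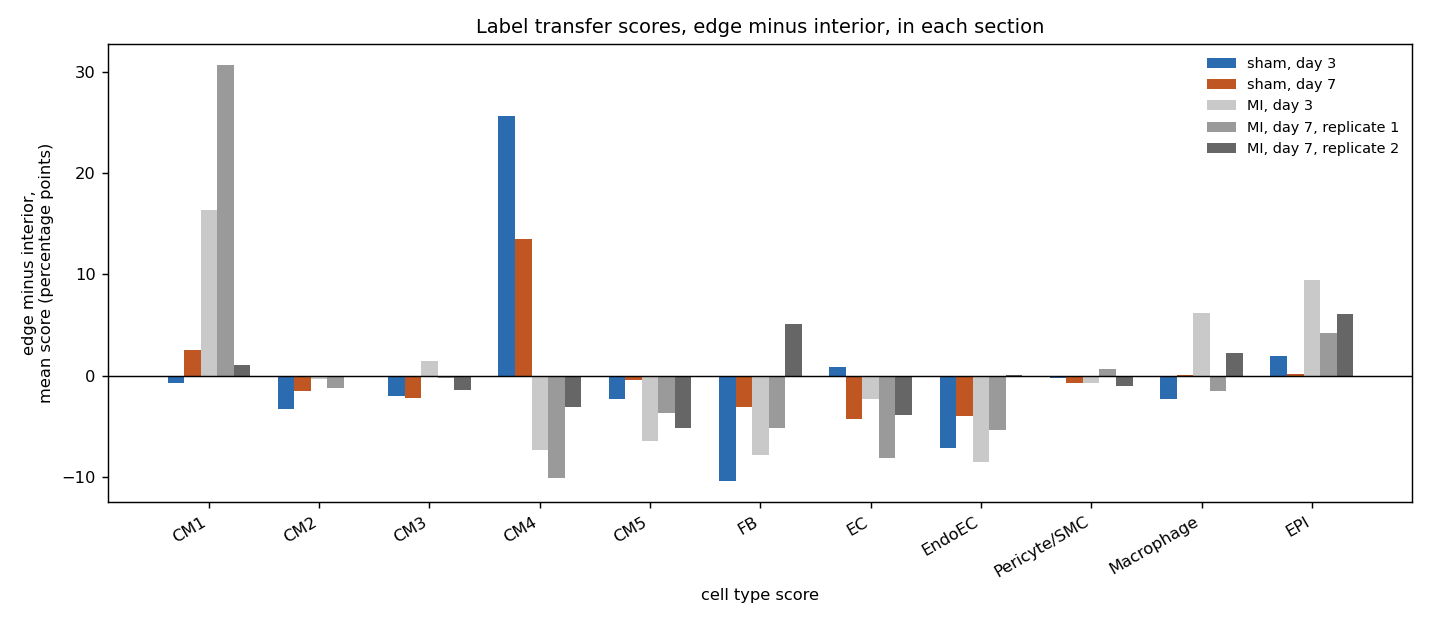
Edge minus interior of the mean label transfer score, in percentage points, for 11 cell types; bars stand for sham day 3 (blue), sham day 7 (orange) and the 3 MI sections (light to dark gray), with 1 value per section and no error. CM4 is above 0 in both sham sections and below 0 in the 3 MI sections, and the endocardial score (EndoEC) is lower at the edge in both sham sections.

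The rim was not uniform. All 86 edge spots of the day 3 section and 114 of the day 7 section faced the outside, and 8 edge spots of the day 7 section lined an enclosed gap. Those 8 were too few for a test and are given as values. Gja5 had 62.8 CPM around the gap and 5.87 on the outer edge, and Irx3 had 26.1 and 5.71. Ccl21a had 30.5 CPM on the outer edge and was listed at 0 around the gap, and Hba-a1 had 5548 and 2127. In the sectors, each of the 12 falls chosen by the rule was lower at the edge in at least 10 of 12, and 8 of them in all 12. The 12 rises were higher in at least 8 of 12, and 4 of them (the globin genes Hba-a1, Hbb-bs and Hbb-bt, and Lrtm1) in all 12. The sectors divide the same spots by which these genes were chosen. Their counts describe evenness along the rim and are no separate support.

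The edge difference of sham hearts was compared with that of MI hearts by an interaction term over all 5 sections. Limma called none of 13333 genes (0.0%); at an unadjusted p under 0.05 the MI difference was above sham for 433 genes and below for 356. In 21.3% of the genes tested, the 3 MI values all lay on one side of both sham values. So few values can also separate this way without any difference between the operations. Of the 23 genes chosen by the rule that could be followed, 17 had the sham direction in all 3 MI sections. The same share over all genes is not given here, so this count has no reference. Hba-a1, for example, was higher at the edge by 0.58, 0.61 and 1.21 in MI, and Nppa was lower by -1.58, -1.52 and -0.39.

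The genes with the largest differences between the operations did not pass. Ccl21a had edge differences of 4.18 and 3.34 in sham and 1.87, 1.79 and 2.22 in MI (difference -1.80 ± 0.37, limma adjusted p = 0.197). Eln was at 0.57 and 0.76 in sham and at -0.98, -0.11 and 0.43 in MI (-0.89 ± 0.23, adjusted p = 0.663). Ccl6, a chemokine of myeloid cells, was at -0.64 and -0.80 in sham and at 1.31, 0.85 and 3.06 in MI (2.46 ± 0.44, adjusted p = 0.145), and Ccl9 at 2.22 ± 0.46 (0.197). The others of these ranks were Spp1, Col6a5, Trem2 and Cd52, with MI above sham, and Tceal5, Fbxw4, Usp46 and Ppp1r14a, with MI below; their adjusted p ran from 0.663 to 0.700. In raw counts of the sham day 3 section Ccl6 had only 3 edge UMIs and Col6a5 had none.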

How the data were processed

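The 5 tissue sections were profiled on Visium slides. Space Ranger, mm10 (GRCm38) and Seurat are named in the submitters' processing notes and the methods. The deposited sham day 3 table held raw UMI counts (32285 genes, spot totals equal to the raw totals in 100% of spots). In the 4 remaining tables the authors had deposited whole-number values after sctransform correction, which were treated as a score. The deposited metadata gave raw UMI counts, label transfer scores as a fraction per cell type, and spot positions in pixels. Raw totals were 11396022 UMIs at sham day 3 and 21853057 at sham day 7.

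Values of 14655 genes present in both sham tables (99.95% of the day 3 values) were scaled to CPM per spot and averaged per class. Genes with at least 1 CPM in at least 2 profiles were tested with limma 3.58.1 in R 4.3.3, two-sided, on log2(mean CPM + 1), which understates changes of low genes. The step was tested on simulated data. Because the tables differ in processing, no count test was used, and edge and interior were compared only within a table. Section was a block because edge and interior come from the same section. P-values of the sham fit rest on 2 sections and on the spread shared by all genes. They do not measure how far the 2 sections differ for a gene. Ring 2 is the spots touching the edge, and so on inward. Sectors are parts of a section and no replicates.

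Gene coordinates are from GENCODE for GRCm38. Named genes were the 12 largest called differences in each direction with the same direction in both sections and at least 20 CPM in the higher class (6 per direction for MI against sham), up to 4 members of each list, and Nfe2l1; a few of these are not reported here. Rule, lists and comparisons were chosen with earlier results of these data known. Alternatives covered pseudocount, filter, scaling, averaging, edge definition, UMI minimum, UMI matching and left-out sections. Values of 1 section have no replicate error.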

Additional observations from a re-analysis of the deposited data

Results flagged for a closer look

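The edge difference of the CM4 score had opposite signs in sham and MI sections. It was 25.6 percentage points at sham day 3 and 13.5 at sham day 7, against -7.36 at MI day 3 and -10.1 and -3.07 at MI day 7; the difference was not tested. With spots matched on UMI total, the second MI section of day 7 was at 0.315 points, on the sham side of 0. Between the sham sections, the CM1 score was at -0.767 points at day 3 and 2.55 at day 7. The endothelial (EC) score was at 0.877 points at day 3 and -4.32 at day 7, and the macrophage score at -2.32 and 0.0813. Matched on UMI total, both sham sections had the same sign for EC (-2.71 and -4.99) and for macrophages (-1.41 and -0.416), and with edge spots of 1 to 4 neighbors also for EC (-1.02 and -5.06). CM1 kept opposite signs there (-0.914 and 0.548 when matched). With 1 section a day, these differences in sign were not tested either.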

How the results depend on the processing

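The count of genes higher at the edge (51) moved to 79 under median-of-ratios scaling, 20 with a 10% trimmed mean of spots, 22 with all 5 sections and 1 without the section as a block (no replicate block). The count of lower genes (187) moved to 73, 52, 39 and 0 under these settings, to 78 without mitochondrial and hemoglobin genes, and to 97 with spots matched on UMI total. Leaving out a sham section, in a fit with the MI sections that assumes the lone sham section varies like them, left 5 to 15 higher and 0 to 6 lower genes: 5 and 0 without day 3, 15 and 6 without day 7. Of the 24 edge genes chosen by the rule, 17 were also called with all 5 sections, 23 under median-of-ratios scaling, 19 with matched spots, 17 with the trimmed mean, 1 without the block, 5 without sham day 3 and 9 without sham day 7, and none reversed under the alternatives run. For MI against sham, matched spots gave 2 genes above and 1 below, a pseudocount of 5 gave 1 below, and leaving out a section gave 0 to 11 above and 0 to 10 below (11 and 0 without MI day 7 replicate 1, 2 and 10 without replicate 2). The CM3 score, lower at the edge by -2.11 points on average over the sham sections, was at -1.71 with edge spots of 1 to 4 neighbors and at -2.86 with matched spots. The cause of these changes was not tested. Tests of outer against cavity edge were not run, since fewer than 10 cavity spots were present. Raw counts per gene were used here for the sham day 3 table only; thinned to 10000 UMIs per spot (6 edge and 1 interior spots left out), Nppa was 271 and 682 CPM and C3 was 11.3 and 1.97. P-values rest on 2 sections.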
